A study of Homo sapiens with 8 samples.

Results

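PC3-EMT1 and PC3-EMT14 are mesenchymal sublines of 1 epithelial prostate cancer line, and they were compared with each other in 3 pairs of arrays, which use 6 of the 8 arrays of the series. The arrays were chosen by their labels. The untransduced pair set PC3-EMT1 against PC3-EMT14, the Scr pair set PC3-EMT1-Scr against PC3-EMT14-Scr, and the sh4 pair set PC3-EMT1-sh4 against PC3-EMT14-sh4. Each line was thus measured on 3 arrays, with no shRNA, with a scrambled shRNA (Scr) and with an shRNA against ZEB1 (sh4), the last 2 delivered by lentivirus. All differences are given as PC3-EMT1 minus PC3-EMT14 on the log2 scale, so that 1 unit is a 2-fold difference and a negative value is a lower level in PC3-EMT1.

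Both lines came from PC3-Epi, an epithelial derivative of the PC3 human prostate cancer line, after it had been grown together with macrophages made from blood monocytes treated with interleukin-4. Populations with a changed shape were isolated after several passages with trypsin. All cells were grown in RPMI medium with serum, and total RNA was hybridised to Affymetrix U133 Plus 2.0 arrays. The labels call the untransduced and Scr cells of both lines mesenchymal and the sh4 cells epithelial. The 2 remaining arrays of the series hold PC3-Epi and the mesenchymal line PC3-EMT12, and they are used here only to show where the genes that separate the lines stand in related cells. Each line in each state was measured once, so that the 3 pairs are repeats of the line difference in 3 states and not repeats of a culture. The p-values measure the spread of that difference over the 3 states, which can be technical. A difference may reflect the whole population or a share of its cells, and bulk RNA cannot tell these apart.

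In an epithelial-to-mesenchymal transition, repressors such as ZEB1 switch off genes of cell junctions and cells gain vimentin and motility. PC3 cells are known to carry many chromosome changes, and sublines of such a line can differ in features outside this programme. Interferon-stimulated genes are an inducible group that is switched on when the factor complex that contains IRF9 binds a short element of their promoters. Many of them encode proteins that sense or restrict viruses.

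The untransduced and the transduced arrays were on different scales, with median log2 values of 4.33 and 4.35 in the first and of 6.19 to 6.23 in the second set, and every difference was therefore taken within a pair. The highest bacterial control probe set served as the floor of each set, at 4.56 for the untransduced and 6.00 for the transduced arrays. ZEB1, the target of the shRNA, stood at 6.81 in PC3-EMT1 and 6.50 in PC3-EMT14, at 9.87 and 10.08 with Scr, and at 9.12 and 9.01 with sh4. Its level was lower with sh4 than with Scr in both lines, and the lines themselves differed by 0.07 ± 0.12 (SE and adjusted p = 0.843 from limma over 3 pairs). VIM, which encodes vimentin, stood between 12.90 and 13.46 on all 6 arrays and differed by 0.16 (adjusted p = 0.524). CDH1, the junction protein E-cadherin, was under the floor in both lines without shRNA (3.07 and 4.00) and with Scr (5.61 and 5.89) and above it with sh4 (9.63 and 9.75), and it was not tested. ESRP1, OVOL1, OVOL2 and EHF were likewise too dim in the untransduced cells to test. With sh4 all 4 were above the floor. They stood at 8.02 in PC3-EMT1 and 9.16 in PC3-EMT14 (ESRP1), 6.64 and 6.52 (OVOL1), 6.15 and 6.70 (OVOL2), and 7.77 and 6.97 (EHF). With Scr, EHF stood at 6.62 in PC3-EMT1 and, under the floor, at 4.65 in PC3-EMT14. EPCAM, an epithelial adhesion molecule that both lines kept, differed by -0.42 (adjusted p = 0.0738) and CDH2, the mesenchymal N-cadherin, by 0.10 (adjusted p = 0.752), neither past the test. None of the markers tested thus passed, with EPCAM at -0.42, -0.59 and -0.24 in the 3 pairs. Of 24 macrophage markers, 3 were above the floor on each untransduced array (CCL22, HCLS1 and LAPTM5), and the same 3 in PC3-Epi. On the transduced arrays 6 or 7 were above it, namely these 3, AIF1, CSF1R, MARCO and, except in PC3-EMT14-sh4, ITGAM. CD14, CD163 and PTPRC were above it on none of the 6 arrays. The ACTB 3′ probe set exceeded the 5′ one by 2.22 in PC3-EMT14-sh4 and by 1.27 to 1.68 on the other 5 arrays, and the main counts are therefore also given without the sh4 pair.

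Of 12282 genes kept, limma called 484 at an adjusted p under 0.05, which is 3.94%. Of these, 88 (0.716%) were higher and 396 (3.22%) lower in PC3-EMT1. In all 3 pairs, 32 genes differed at least 2-fold the same way (0.261%), 5 higher (0.0407%) and 27 lower (0.22%), and limma called all 32. The pairs were not equally far apart, since 77 genes (0.627%) differed at least 2-fold in the untransduced pair, 262 (2.13%) in the Scr pair and 125 (1.02%) in the sh4 pair. Across genes, the differences correlated with a Pearson r of 0.553 between the untransduced and Scr pairs, 0.425 between untransduced and sh4 and 0.520 between Scr and sh4, as a description over genes, which are not independent. The number of calls depended on the pairs used. It was 252 without the sh4 pair and 0 without the untransduced pair, where 1838 genes had an unadjusted p under 0.05. Without the shRNA state as a block it was 0 in limma, with 209 at an unadjusted p under 0.05.

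**Figure D1:**
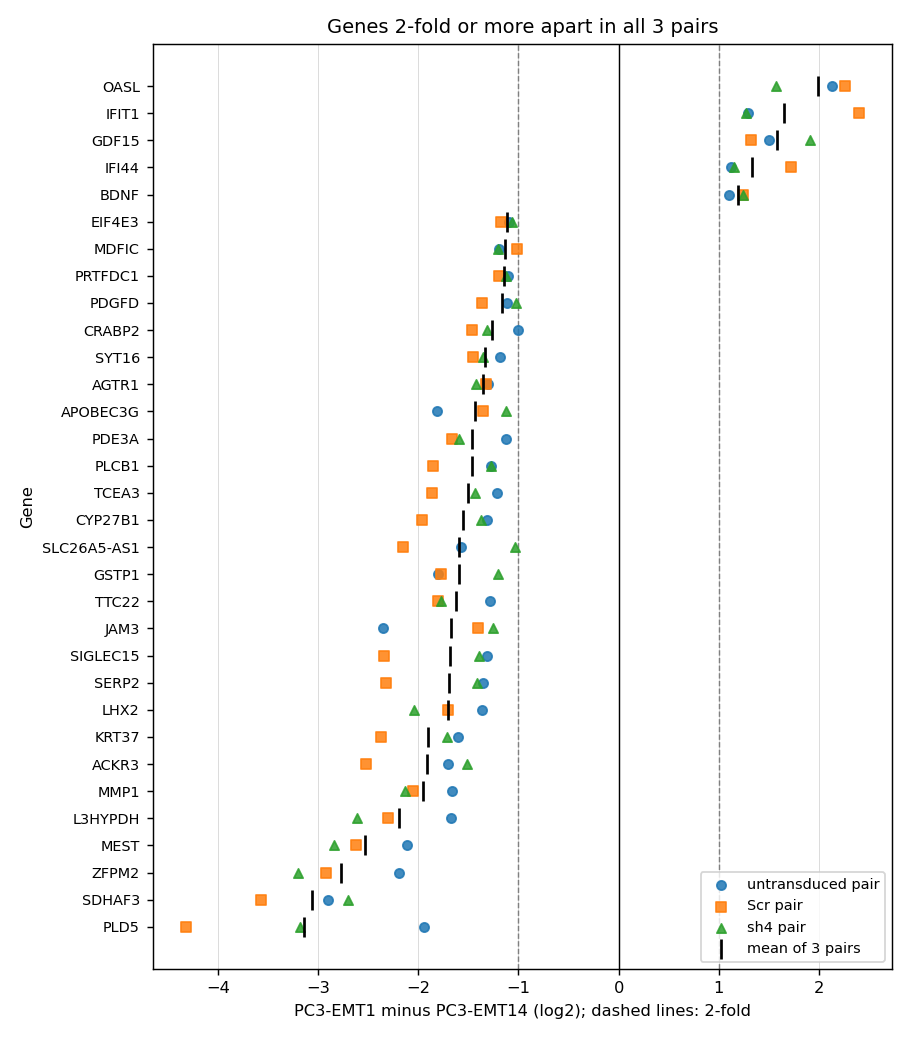
PC3-EMT1 minus PC3-EMT14 on the log2 scale (x axis) for the 32 genes 2-fold or more apart in all 3 pairs (y axis); circles, squares and triangles are the untransduced, Scr and sh4 pairs, black bars their mean, and dashed lines mark 2-fold. The 5 higher genes lie to the right, led by OASL at 1.99, and the 27 lower genes to the left. SDHAF3 and ZFPM2 were under the floor on all PC3-EMT1 arrays, so that their distances are taken against background.

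The 5 higher genes held 3 interferon-stimulated genes, a stress cytokine and a neurotrophin. OASL, an antiviral relative of the oligoadenylate synthetases, stood at 10.66 in PC3-EMT1 and 8.53 in PC3-EMT14, at 11.24 and 8.98 with Scr, and at 11.03 and 9.46 with sh4. The lines did not overlap within either scale, and the mean difference was 1.99 ± 0.14 (adjusted p = 0.00219). IFIT1, which binds foreign RNA, stood at 10.25 and 8.95, at 12.42 and 10.02 with Scr, and at 11.59 and 10.32 with sh4, a difference of 1.66 ± 0.21 (adjusted p = 0.0115). IFI44, a further interferon-induced protein, differed by 1.13, 1.73 and 1.15 in the 3 pairs (mean 1.33 ± 0.13, adjusted p = 0.00465).

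GDF15, a secreted member of the TGF-beta superfamily released by stressed cells, stood at 9.93 in PC3-EMT1 and 8.43 in PC3-EMT14, at 9.98 and 8.66 with Scr, and at 9.80 and 7.89 with sh4. Within each scale, every PC3-EMT1 array was thus above every PC3-EMT14 array. The mean difference was 1.58 ± 0.13 (adjusted p = 0.00237), although the other probe sets of this gene differed by 0.19 and 0.64. BDNF, a growth factor of neurons, stood at 5.89 and 4.78, at 6.87 and 5.63 with Scr, and at 6.36 and 5.12 with sh4. Its difference was 1.19 ± 0.09 (adjusted p = 0.00237), and PC3-EMT14 was under the floor on both transduced arrays and the other probe set differed by 0.66.

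**Figure D2:**
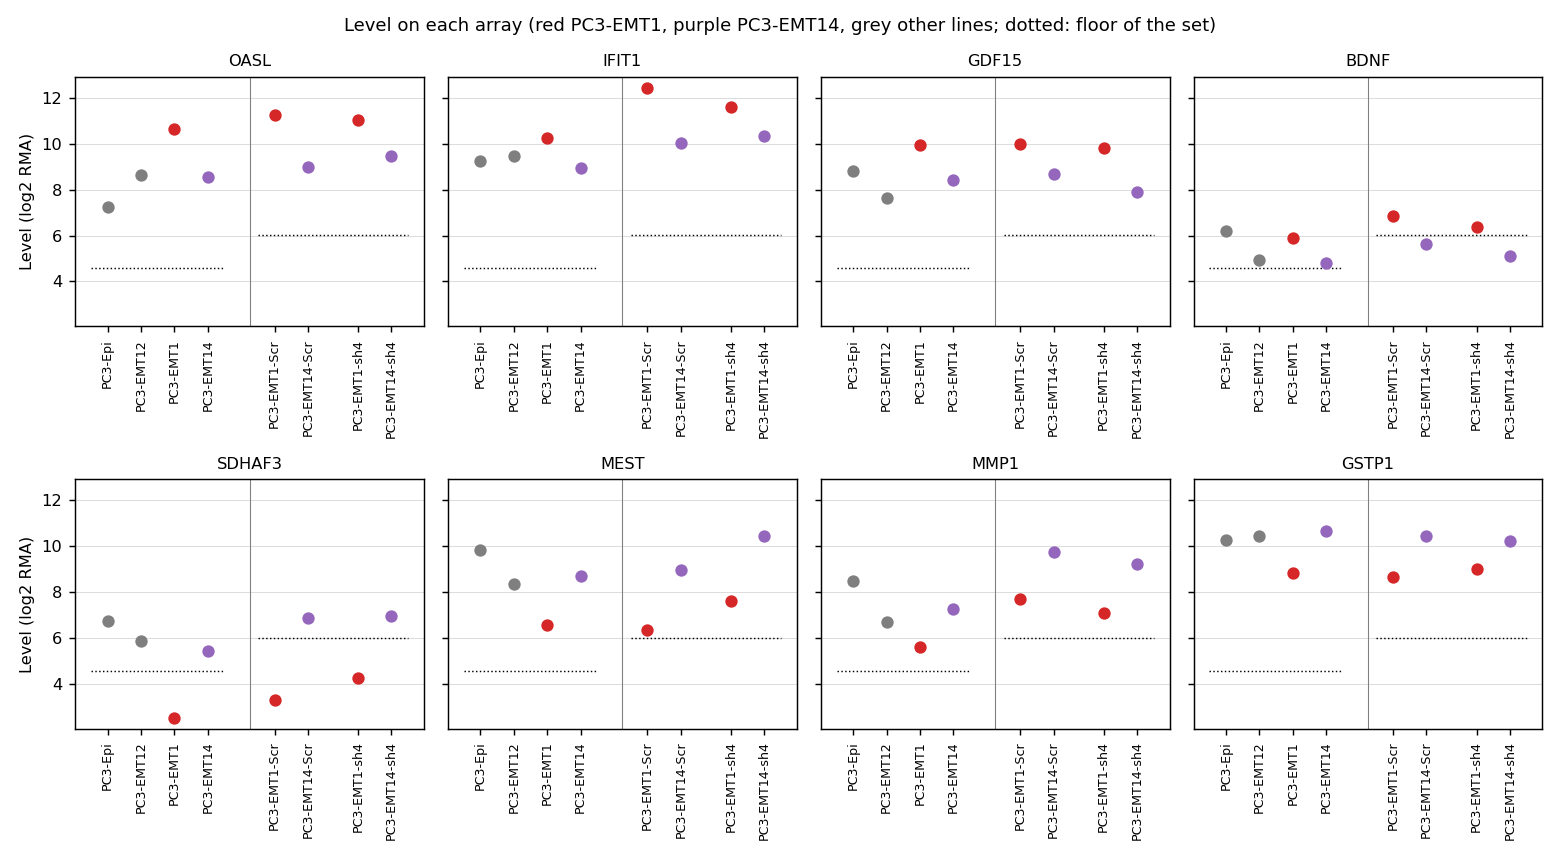
Level on the log2 RMA scale (y axis) of 8 genes on each of the 8 arrays (x axis), with PC3-EMT1 in red, PC3-EMT14 in purple and the other lines in grey; the dotted line is the floor of each set of arrays, and levels are comparable only within a set. Red lies above purple in all 3 pairs in the upper row and below it in the lower row, where SDHAF3 in PC3-EMT1 is under the floor on all 3 arrays.

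The 27 genes lower in PC3-EMT1 were of mixed function. SDHAF3, an assembly factor of succinate dehydrogenase in mitochondria, stood at 2.52 in PC3-EMT1 and 5.42 in PC3-EMT14, at 3.28 and 6.85 with Scr, and at 4.24 and 6.95 with sh4. All 3 PC3-EMT1 arrays were under the floor and all 3 PC3-EMT14 arrays above it, which makes the gene at least 1.85-fold lower in PC3-EMT1 (adjusted p = 0.00117). Its level was 6.71 in PC3-Epi and 5.85 in PC3-EMT12, so that PC3-EMT1 was the line in which it was not above background. ZFPM2, a zinc finger cofactor of GATA factors, stood at 2.94, 5.19 and 4.18 in PC3-EMT1 and at 5.13, 8.11 and 7.38 in PC3-EMT14, in the order untransduced, Scr and sh4. It was at least 2.55-fold lower (adjusted p = 0.00166), and it was also under the floor in PC3-Epi (2.10) but at 6.02 in PC3-EMT12. PLD5, of the phospholipase D family, differed by -1.94, -4.32 and -3.18 (mean -3.15 ± 0.36, adjusted p = 0.00826), with 1 PC3-EMT1 array under the floor, and its other probe set by -0.74.

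MEST, an imprinted gene expressed from the paternal copy, was above the floor on all 6 arrays, least so in PC3-EMT1-Scr. It stood at 6.57 in PC3-EMT1 and 8.69 in PC3-EMT14, at 6.33 and 8.95 with Scr, and at 7.62 and 10.46 with sh4 (mean -2.53 ± 0.14, adjusted p = 0.00117). L3HYPDH, a hydroxyproline dehydratase, differed by -1.67, -2.30 and -2.62 (mean -2.19 ± 0.17, adjusted p = 0.00237). GSTP1, a glutathione transferase that detoxifies electrophiles and is a known target of promoter methylation in prostate cancer, stood at 8.84 and 10.64, at 8.67 and 10.44 with Scr, and at 9.02 and 10.23 with sh4. It was 1.59 ± 0.13 lower (adjusted p = 0.00274), and PC3-Epi (10.26) and PC3-EMT12 (10.44) stood at the level of PC3-EMT14.

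Genes of the cell surface and the matrix were also among the 27. MMP1, the interstitial collagenase, stood at 5.62 and 7.28, at 7.69 and 9.75 with Scr, and at 7.10 and 9.23 with sh4. It was lower in PC3-EMT1 by a similar amount in each pair (mean -1.95 ± 0.12, adjusted p = 0.00123). ACKR3, a scavenging chemokine receptor, differed by -1.91 (adjusted p = 0.00397), but its 2 other probe sets by -0.30 and 0.07. SIGLEC15, a lectin that binds sialic acid, differed by -1.68 (adjusted p = 0.00759). JAM3, a junctional adhesion molecule, differed by -2.35 in the untransduced pair and by -1.40 and -1.26 in the others (adjusted p = 0.00894), and its other probe sets by -0.18 and -0.14. AGTR1, an angiotensin receptor, differed by -1.31, -1.32 and -1.42, and PDGFD, a ligand of the platelet-derived growth factor receptors, by -1.11, -1.37 and -1.02. Both sets of differences were close to equal over the 3 states.

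Other genes among the 27 encode nuclear, enzymatic and structural proteins. LHX2, a LIM homeobox factor, differed by -1.70 ± 0.13 (adjusted p = 0.00237), with 2 PC3-EMT1 arrays under the floor and its other probe set at -0.41. KRT37, a hair keratin, differed by -1.90 (adjusted p = 0.00237) and SERP2, related to a stress protein of the endoplasmic reticulum, by -1.70 (adjusted p = 0.00622). SERP2 was also under the floor on 2 PC3-EMT1 arrays, and its other probe sets differed by -0.46 to 0.07. TTC22 differed by -1.62 (adjusted p = 0.00237), with its other probe sets between -0.14 and 0.12, and the antisense transcript SLC26A5-AS1, under the floor on 1 PC3-EMT1 array, by -1.59 (adjusted p = 0.00894). The remaining 10 had mean differences from -1.55 to -1.11. They were CYP27B1, which activates vitamin D, the elongation factor TCEA3, the signalling enzymes PLCB1 and PDE3A, the deaminase APOBEC3G, which restricts retroviruses, the retinoic acid carrier CRABP2, the cap-binding protein EIF4E3, and SYT16, PRTFDC1 and MDFIC. The other probe sets of PLCB1, itself under the floor on 1 PC3-EMT1 array, differed by -0.051 and -0.002, that of TCEA3 by 0.04, that of APOBEC3G by -0.27 and those of MDFIC by -0.94 to -0.03. Those of EIF4E3 differed by -0.68 to -0.30 and those of PDE3A by -1.15 to -0.43. Such disagreement was common. Of 51 genes called and named by the rule that have several probe sets, 36 had at least 1 other with under 50% of the difference or the opposite sign, and 16 had 1 of opposite sign.

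Interferon response genes were higher in PC3-EMT1 as a group. Of 33 kept, 13 were called higher and none lower, against 0.716% and 3.22% of all genes, and 26 were higher in all 3 pairs, against 18.8% of all genes. Their median difference was 0.76 and lay between 0.67 and 0.83 under the other scalings. The group differed most in the Scr pair, with a median of 1.34, against 0.49 in the untransduced pair and 0.28 in the sh4 pair. Over all genes, these medians were 0.003, 0.015 and -0.040. The 13 held effectors and sensors of foreign RNA and 1 regulator. Besides OASL, IFIT1 and IFI44, they were RSAD2, the antiviral enzyme viperin (1.63, adjusted p = 0.0306), MX1, a dynamin-like GTPase that restricts viruses (1.43), HERC5 (1.28), the IFIT1 relatives IFIT2 (1.23) and IFIT3 (1.06), OAS2 (1.12), IFI6 (1.00), ISG15, a ubiquitin-like modifier (0.87), and GBP1, a guanylate-binding protein (0.61). RSAD2 was under the floor on 2 PC3-EMT14 arrays (4.23 untransduced and 5.76 with Scr), so that its difference is in part against background. The regulator was IRF9, the DNA-binding partner in the interferon-activated complex, which differed by 0.80, 1.06 and 0.65 (mean 0.84, adjusted p = 0.0120).

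Members that missed the threshold included OAS1, at 0.78, 3.08 and 0.97 (adjusted p = 0.07), and IFITM1, at 0.58, 2.45 and 0.65 (adjusted p = 0.0850), in both of which the Scr pair stood apart. IFIT5 (-0.08) and ISG20 (-0.06) had the only means under 0. The number called was again 13 without the sh4 pair, 6 after quantile normalization and 0 without the untransduced pair, where 31 of 33 were still above 0. In the untransduced cells, OASL was 8.65 in PC3-EMT12 and 7.25 in PC3-Epi, and IFIT1 was 9.47 and 9.26. All were under the levels of PC3-EMT1 and nearer to those of PC3-EMT14, with OASL in PC3-Epi under both lines. IFI44 was 8.20 in PC3-EMT12, nearer to PC3-EMT1 (8.64) than to PC3-EMT14 (7.51), and 6.70 in PC3-Epi.

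**Figure D3:**
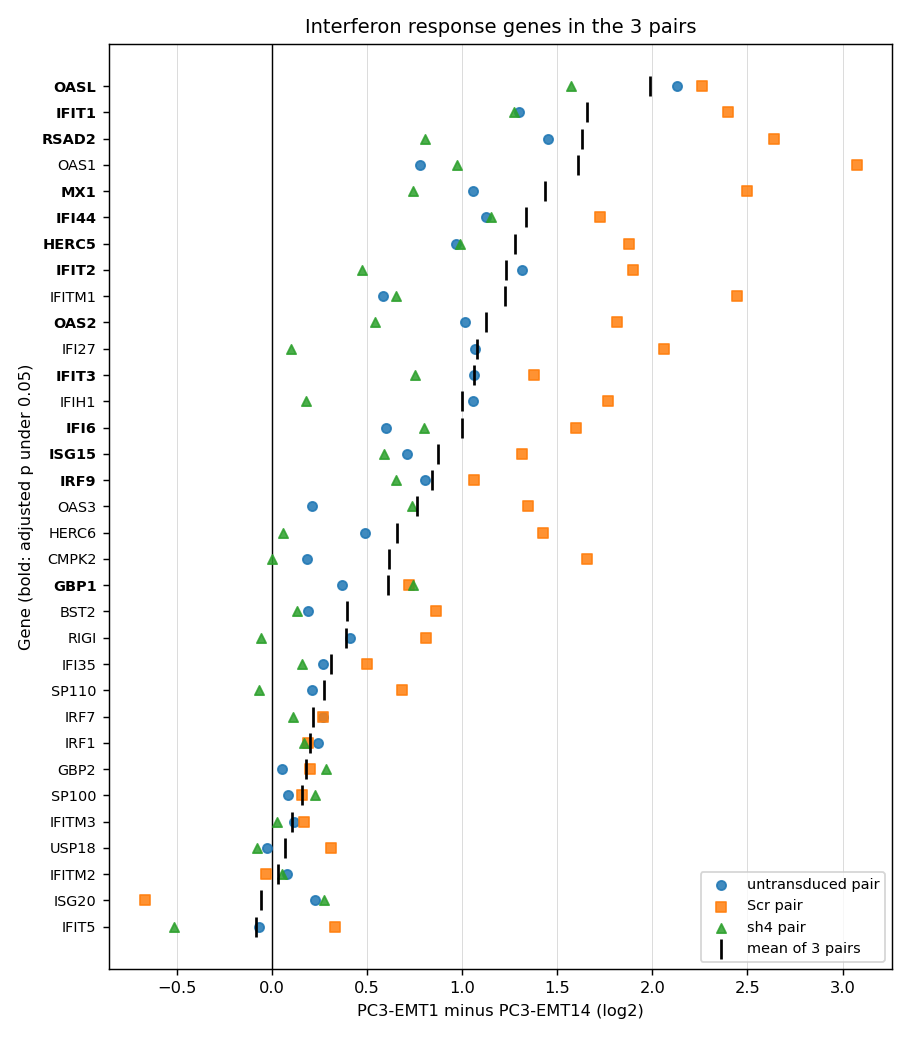
PC3-EMT1 minus PC3-EMT14 on the log2 scale (x axis) for the 33 interferon response genes kept (y axis, sorted by mean); circles, squares and triangles are the untransduced, Scr and sh4 pairs, black bars the mean, and bold names passed the test. The Scr pair (median 1.34) lies furthest right for most genes, and 26 genes lie above 0 in all 3 pairs.

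To show the element that this group is known for, the promoters of 3 called members are printed (RefSeq, build GRCh38.p14, 250 bases before to 50 after the start, the first listed start of each gene, 5′ to 3′ along the gene, with capitals where GAAA, any 2 bases and GAAA again were found on either strand, here always on the other strand, where they read as TTTC). They are IFIT1 and IFI44, 2-fold or more higher in all 3 pairs, and HERC5, also called and chosen after its matches were seen. IFIT1 is at chr10:89392373-89392672, IFI44 at chr1:78649539-78649838 and HERC5 at chr4:88456869-88457168, all on the plus strand.
IFIT1: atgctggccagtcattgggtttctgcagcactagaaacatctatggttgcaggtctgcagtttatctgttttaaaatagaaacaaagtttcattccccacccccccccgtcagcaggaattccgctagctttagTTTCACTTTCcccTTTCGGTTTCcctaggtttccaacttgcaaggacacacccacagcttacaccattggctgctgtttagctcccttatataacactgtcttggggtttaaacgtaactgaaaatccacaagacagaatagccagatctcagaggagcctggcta
IFI44: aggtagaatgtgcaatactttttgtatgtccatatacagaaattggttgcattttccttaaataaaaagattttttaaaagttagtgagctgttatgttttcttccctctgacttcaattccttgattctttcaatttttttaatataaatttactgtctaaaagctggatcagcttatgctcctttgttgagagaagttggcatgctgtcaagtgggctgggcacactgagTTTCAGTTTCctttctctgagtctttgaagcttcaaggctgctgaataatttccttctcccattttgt
HERC5: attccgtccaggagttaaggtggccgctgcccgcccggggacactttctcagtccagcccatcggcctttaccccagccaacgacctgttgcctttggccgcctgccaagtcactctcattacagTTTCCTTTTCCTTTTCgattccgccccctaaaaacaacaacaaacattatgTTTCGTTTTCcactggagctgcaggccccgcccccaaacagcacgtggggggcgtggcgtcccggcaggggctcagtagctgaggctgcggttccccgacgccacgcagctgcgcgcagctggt

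The IFIT1 promoter held 2 matches, that of IFI44 held 1 and that of HERC5 held 3, of which 2 overlap. Over the whole list, the letters were present in 16 of 26 promoters with a sequence (61.5%), against 3.65% of 27305 promoters and 2.56% of those of the genes kept. They were present in 8 of 10 called members and in 8 of 16 that were not called. A match describes letters and was not tested as a binding site.

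The counts of the other lists are to be read against 0.716% of all genes called higher and 3.22% called lower. Among lists of the epithelial and mesenchymal programme, the junction genes had 11.1% called lower. Of 27 epithelial junction genes, 1 was called higher and 3 lower (median -0.10), namely CXADR, a virus receptor at tight junctions (0.70, adjusted p = 0.0174), and the claudins CLDN7 (-0.996, adjusted p = 0.00397), CLDN3 (-0.69) and CLDN4 (-0.62). CLDN1 stood at 0.75, 2.02 and 0.30 without passing. Of 8 EMT transcription factors, 1 was called, ETS1, which was lower (8.62 and 9.23 untransduced, 9.74 and 10.90 with Scr, 9.95 and 10.85 with sh4, adjusted p = 0.0147). TWIST1 (0.30), TCF4 (-0.40) and RUNX2 (0.43) did not pass. None of 6 epithelial regulators (median -0.11) and none of 8 keratins (median -0.06) was called. Of 19 genes of the mesenchymal cytoskeleton, the actin-binding caldesmon CALD1 was lower (-0.48, adjusted p = 0.0479), with a median of 0.08 for the list. The other probe sets of CALD1 stood at -0.38 to 0.13.

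Matrix and protease genes were called in both directions. Of 35 collagens and matrix genes, COL5A2 was higher (0.73) and COL8A1 (-0.57) and TNC, which encodes tenascin C (-0.76), were lower, and the median was 0.03. None of 24 integrin and focal adhesion genes was called (median -0.04). TGFBI stood at -0.40, -2.42 and -1.16 (adjusted p = 0.0672) and FN1, fibronectin, at -1.23, -1.11 and -0.08 (adjusted p = 0.0814), so that their sizes varied with the state. Of 30 proteases and inhibitors, MMP1 and the antitrypsin gene SERPINA1 (-0.75, other probe sets at -0.95 to 0.12) were lower, with a median of 0.01.

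Signalling lists had from 0 to 5 calls each, and 9.52% of receptor kinases and ligands, 8.57% of axon guidance genes and 7.69% of Wnt genes were called lower, against 3.22% of all genes. Of 37 TGF-beta and BMP genes, GDF15 and ID3, a target of BMP signalling (0.53), were higher and NOG, the BMP antagonist noggin, and the receptor BMPR2 (-0.45) lower. NOG differed by -0.26, -1.22 and -1.51 in the 3 pairs. Of 42 receptor tyrosine kinases and ligands, the growth factor FGF2 was higher (0.78) and PDGFD, IGFBP4 (-1.11), the hepatocyte growth factor receptor MET (-0.49) and EPHA4 (-0.45) were lower. FGF2 was under the floor on 1 PC3-EMT14 array, and its other probe set stood at 0.39. Of 26 Wnt genes, the receptor FZD1 (-0.56, other probe sets at -0.20 and -0.03) and the secreted antagonist DKK3 (-0.60, other probe sets at -0.07 to 0.15) were lower. DKK3 was under the floor on 2 PC3-EMT1 arrays. Of 35 axon guidance genes, EPHA4, EPHA5 (-0.70, other probe sets at -0.24 to 0.07) and SEMA3A (-0.54) were lower. Of 21 Notch genes none was called. Of 34 chemokines, cytokines and feedback genes of NF-kB, IL6 was higher (0.89, 0.45 and 0.51 in the 3 pairs). TNFSF15 (-1.17, its other probe set at -0.49) and IL23A (-0.74, other probe sets at -0.10 to 0.01) were lower. TNFSF15 was under the floor on 1 PC3-EMT1 array. Medians ranged from -0.12 for Wnt to -0.01 for Notch over these 6 lists.

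Growth and metabolism separated the lines less evenly over the 3 states. None of 30 mitosis genes was called, and their median was 0.66 in the Scr pair but 0.07 in the untransduced and -0.04 in the sh4 pair. Of 38 genes of DNA replication and entry into S phase, GINS4 was higher (0.48, other probe sets at 0.05 to 0.42) and the kinase CDK6 lower (-0.53, other probe sets at -0.66 to 0.05). The medians of the pairs were 0.02, 0.45 and -0.24 for this list. Of 31 hypoxia and glycolysis genes, 4 were lower, or 12.9% against 3.22% of all genes, and none higher (median -0.08), led by NDRG1 (9.52 and 10.39 untransduced, 10.27 and 12.19 with Scr, 10.40 and 11.49 with sh4, adjusted p = 0.0167), with ANKRD37 (-0.56), PDK1 (-0.53) and BNIP3 (-0.49). The other probe set of ANKRD37 stood at -0.05. These 4 are known targets of hypoxia-inducible factors, and 1 of them was still called lower without the sh4 pair. Of 12 aldehyde dehydrogenases, ALDH2 was lower (-1.03, adjusted p = 0.016). Of 25 genes of cholesterol and fatty acid synthesis, INSIG1 (-0.79) and SC5D (-0.52) were lower. Of 33 NRF2 targets, GSTP1 was the 1 call.

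The remaining lists had 2 calls or fewer. ANXA10 (0.96) and S100P (0.51) were higher among 21 annexins and S100 proteins. STC2 (0.62, its other probe set at -0.01) was higher and DNAJC3 (-0.49) lower among 32 genes induced by unfolded proteins or lack of amino acids. PRAME (-0.50) was lower among 3 cancer-testis genes, the apoptosis inhibitor BIRC2 (-0.45) among 25 genes of the BCL2 family and death receptors, and GUSB (-0.49, its other probe set at 0.16) among 11 reference genes. No call was made among 18 antigen presentation genes (median 0.22), 12 prostate lineage genes (0.04), 16 HOX genes (-0.04), 8 protocadherins (0.02) and 3 macrophage markers kept (0.14). Without the sh4 pair, 16 of the 31 lists had the same counts and 15 did not. Epithelial junctions then had 2 called higher and 1 lower, Wnt genes 1 higher and 0 lower, receptor kinases and ligands 0 and 3, axon guidance genes 0 and 1, and cytokines 0 and 1. Cholesterol synthesis, annexins and S100 proteins, DNA replication, the mesenchymal cytoskeleton, cancer-testis and reference genes then had 0 calls in limma. Of the 31 lists, 7 had a median that changed sign under another scaling, all of them between -0.03 and 0.02.

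Genes that lie next to each other on 3 chromosomes were lower together. Chromosomes 7, 11 and 14, picked after their values were seen, held 201 of the calls lower among 1699 genes (11.8%), against 194 of 10562 genes elsewhere (1.84%). Without the sh4 pair, the shares were 4.24% and 1.21%. The higher calls were 7 of 1699 genes on these chromosomes and 81 of 10562 elsewhere, against 0.716% of all genes. Chromosome 13, counted as elsewhere, was also lower, with medians of -0.09, -0.11 and -0.09 in the untransduced, Scr and sh4 pairs. Of its 206 genes, 41.7% were lower in all 3 pairs, against 21.8% of all genes, and 11 (5.34%) were called lower and 0 higher.

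**Figure D4:**
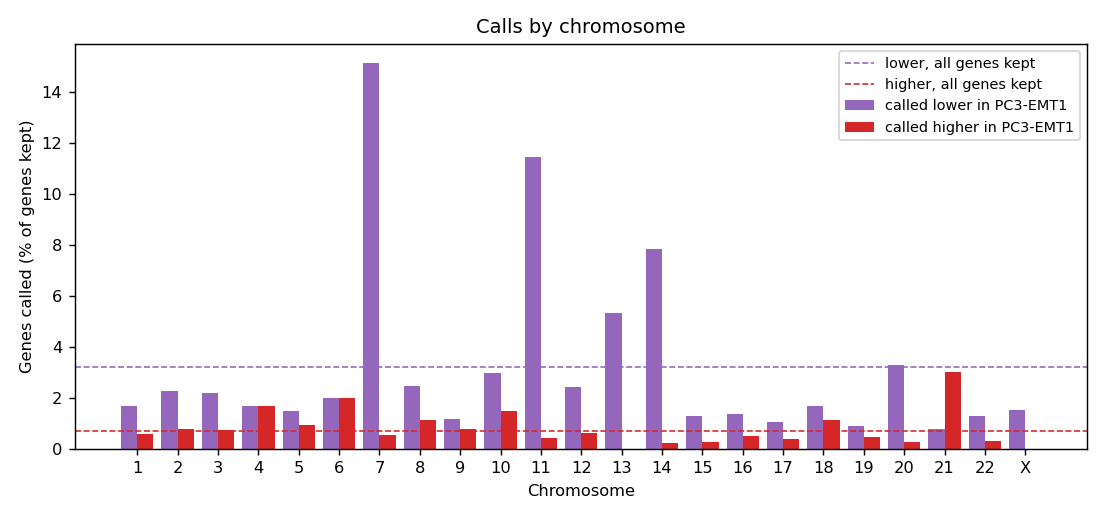
Share of the genes kept that were called lower (purple) or higher (red) in PC3-EMT1 (y axis, %) on each chromosome (x axis); dashed lines are the shares over all genes, 3.22% and 0.716%. Chromosomes 7, 11 and 14 stand above the others for genes called lower, followed by chromosome 13 (5.34%).

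Most of the calls lower on these chromosomes lay in parts of them. A running median over 25 neighbouring genes was below -0.1 in all 3 pairs over 3 stretches of 50 or more genes, and above 0.1 over 1. On chromosome 7, the stretch ran over 307 of 575 genes, from HUS1 to KIAA1549, with medians of -0.29, -0.38 and -0.41 in the untransduced, Scr and sh4 pairs, and 79 genes were called lower and 0 higher. On chromosome 11, it ran over 399 of 716 genes, from RTN3 to PRDM10, with medians of -0.25, -0.29 and -0.33, and 74 were called lower and 0 higher. On chromosome 14, it was shorter but deeper, over 58 of 408 genes from ERO1A to PLEKHG3, with medians of -0.38, -0.54 and -0.71, and 27 were called lower and 0 higher. On chromosome 6, the stretch that was higher in PC3-EMT1 ran over 94 of 605 genes, from ZNF184 to COL11A2, with medians of 0.15, 0.23 and 0.15, and 54 genes (57.4%) were higher in all 3 pairs, of which 2 were called, while 1 gene was called lower. The 764 genes of the 3 lower stretches, 6.22% of those kept, held 180 of the 396 calls lower. Outside them, 1.88% of genes were called lower. The stretches were defined with the same 3 pairs, so that these shares describe them and test nothing. DNA was not measured.

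**Figure D5:**
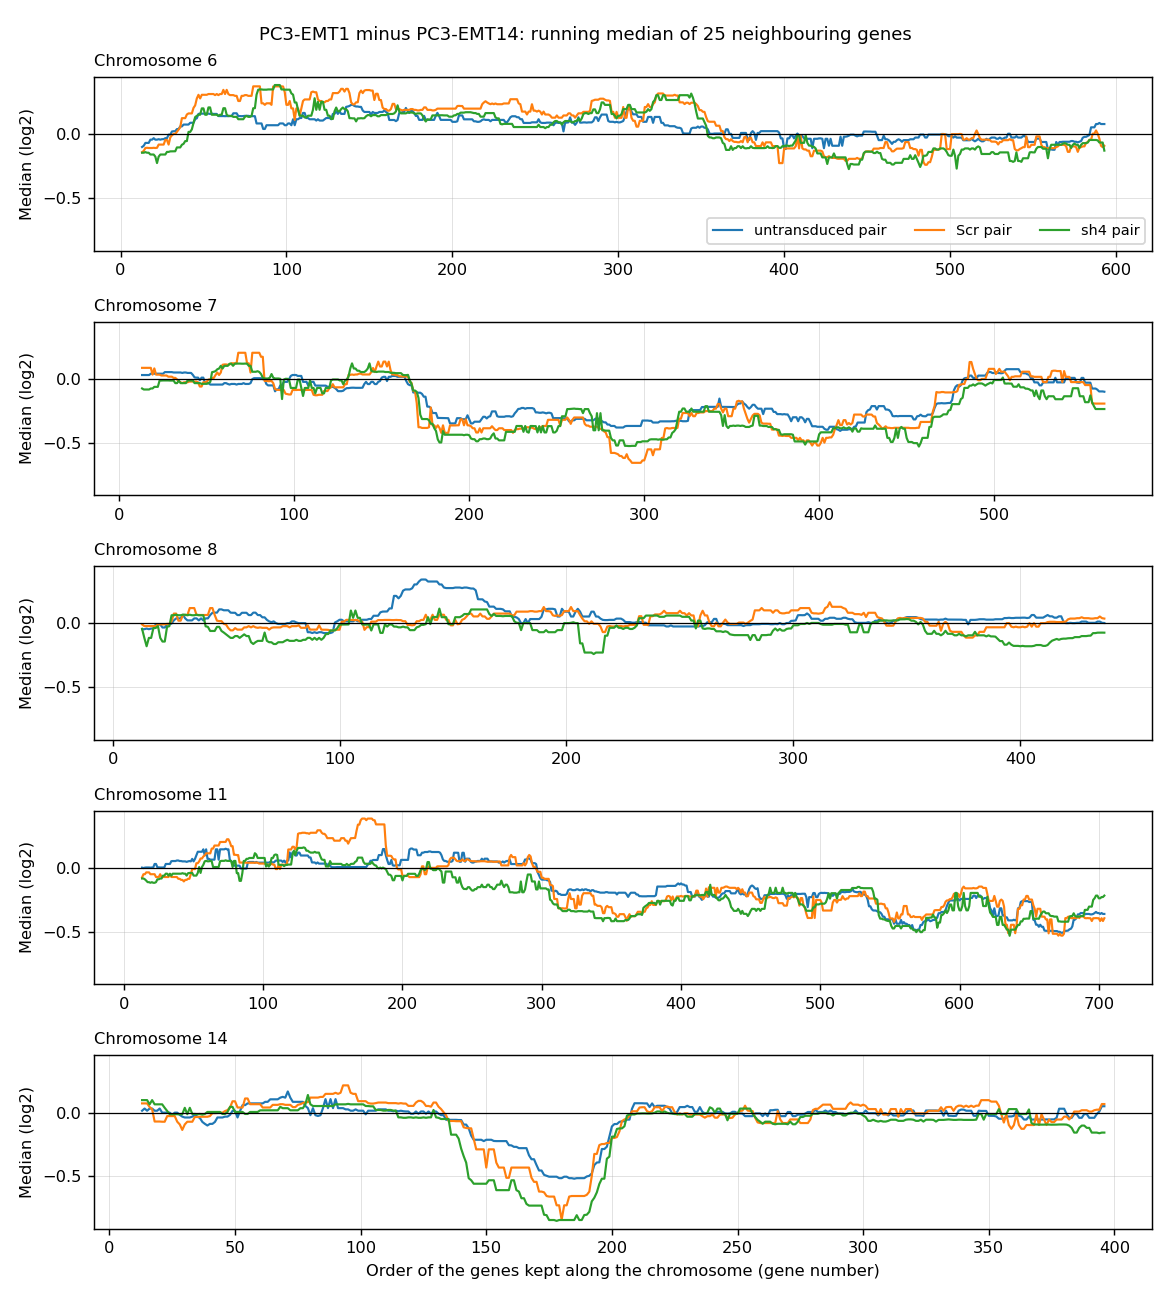
Running median over 25 neighbouring genes of PC3-EMT1 minus PC3-EMT14 (y axis, log2) against the order of the genes kept along chromosomes 6, 7, 8, 11 and 14 (x axis), with 1 line for each pair. The 3 pairs fall together over 307 genes of chromosome 7, 399 of chromosome 11 and 58 of chromosome 14, whereas on chromosome 8 the untransduced pair alone rises.

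Windows of 25 neighbouring genes were then chosen on the untransduced pair alone and described in the Scr and sh4 pairs, which share no array with it. The lowest window held the genes from ACTR10 to SYNE2 on chromosome 14, with a median of -0.51 in the untransduced pair, -0.66 in the Scr pair and -0.84 in the sh4 pair. Over all 2351 windows, the 5th percentile was -0.25 in the Scr and -0.27 in the sh4 pair. In this window, 23 of 25 genes were lower in all 3 pairs and 15 were called, among them L3HYPDH, SYT16 (-1.33), the flippase subunit TMEM30B (-1.03), the transporter SLC38A6 (-1.01) and the kinase PRKCH (-0.98). These counts, and the calls given for the windows below, include the pair that chose the windows. They describe the windows and test nothing. The other probe set of TMEM30B stood at 0.28 and those of PRKCH at -0.61 and 0.06.

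The next 3 windows lay on chromosome 11. From ARHGEF12 to STT3A, the medians were -0.51, -0.53 and -0.42, and 14 genes were called, among them the sorting receptor SORL1 (6.84 and 8.10 untransduced, 8.55 and 9.67 with Scr, 8.77 and 9.65 with sh4) and the zinc finger gene ZNF202 (-0.82, -0.83 and -0.83). From CEP57 to ATM, the medians were -0.48, -0.38 and -0.49, and 10 were called, with MMP1, PDGFD, CFAP300 (-1.01) and SLC35F2 (-0.96) the largest. From FXYD6 to NLRX1, the medians were -0.41, -0.45 and -0.48, and 11 were called, among them TMEM25 (-0.68, its other probe set at -0.14). These 4 low windows thus stayed below the 5th percentile in both pairs that had not chosen them. Against PC3-Epi, on the untransduced arrays, the genes from ARHGEF12 to STT3A had a median of -0.59 in PC3-EMT1, -0.08 in PC3-EMT14 and -0.09 in PC3-EMT12. Those from ACTR10 to SYNE2 stood lower in all 3 lines, at -1.24, -0.74 and -0.77. The windows were chosen on the same PC3-EMT1 and PC3-EMT14 arrays, so that the order of these lines follows from the choice.

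Of the highest windows, those of chromosome 8 differed between the pairs. From ZNF703 to NKX6-3 on chromosome 8, the median was 0.34 in the untransduced pair but 0.07 and -0.01 in the others. From KAT6A to ATP6V1H, also on chromosome 8, it was 0.19, 0.05 and 0.11. Those of chromosome 6 stayed above the 95th percentile in all 3 pairs. The genes from POLR1HASP to C6orf15 had medians of 0.22, 0.32 and 0.13, and those from NFKBIL1 to WHR1, which include the sialidase NEU1 (0.73, adjusted p = 0.0124), had 0.18, 0.19 and 0.17. The 95th percentiles over all windows were 0.11, 0.15 and 0.11 in the untransduced, Scr and sh4 pairs.

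Some of the genes described above lie in the lower stretches, which held 180 of all 396 calls lower (45.5%). Of the 27 genes 2-fold lower in all 3 pairs, 9 did, namely SDHAF3, MEST, MDFIC and SLC26A5-AS1 on chromosome 7, GSTP1, MMP1 and PDGFD on chromosome 11, and L3HYPDH and SYT16 on chromosome 14. The 24 neighbours of MEST had a median of -0.37, those of SDHAF3 -0.50, those of GSTP1 -0.26, those of MMP1 and PDGFD -0.42 and those of L3HYPDH and SYT16 -0.67. Of 34 list members called lower, 14 lay in the stretches (BIRC2, CALD1, CDK6, CLDN3, CLDN4, ETS1, FZD1, GSTP1, GUSB, MET, MMP1, PDGFD, SC5D and SEMA3A), against 45.5% of all calls lower. The part of their neighbours in these calls was not tested. The neighbours of OASL, IFIT1, GDF15, IFI44 and BDNF had medians from -0.02 to 0.04. The antigen presentation genes that differed most, TAP1, HLA-E, PSMB8 and HLA-F, lie in the higher stretch of chromosome 6. None of them was called, their neighbours had medians from 0.13 to 0.24, and the part of these neighbours was not tested.

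Genes far apart in the transduced cells mostly had the same direction in the untransduced cells. Genes were chosen on the Scr and sh4 pairs, where both differed at least 2-fold one way, and read in the untransduced pair, which the choice did not use. Of 60 genes chosen as lower in PC3-EMT1, 59 were lower in the untransduced pair, against 46.4% of all genes, and 27 were 2-fold lower, against 0.472%. Of 16 chosen as higher, 15 were higher, against 53.3% of all genes, and 5 were 2-fold higher, against 0.155%. Their median untransduced differences were -0.91 and 0.65. No gene was 2-fold one way in the untransduced pair and 2-fold the other way in both transduced pairs.

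For the same genes, the other lines were read on the untransduced arrays to see which line they resembled. Of the 60 lower genes, PC3-EMT12 was closer to PC3-EMT14 than to PC3-EMT1 in 44, or 73.3%, against 60.9% of all genes kept. It was within 2-fold of PC3-EMT14 alone in 19 and of PC3-EMT1 alone in 2. PC3-Epi was closer to PC3-EMT14 in 34 of the 60, or 56.7%, against 54.2% of all genes, and within 2-fold of neither line in 27. Of the 16 higher genes, PC3-EMT12 was closer to PC3-EMT14 in 13 and PC3-Epi in 11. Each of these lines was measured on 1 array, and no test was made.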

How the data were processed

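Total RNA of the 8 samples had been hybridised to 1 array each. The authors deposited log2 values per probe set, made with the affy tools and RMA, whose versions are not given in the sources used here. The 2 scales of the deposited log2 values were found from the array medians. No column of the study's own comparisons was used.

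Of 54675 probe sets, 62 were controls, 41091 had 1 gene symbol, 1801 several and 11721 none, from the platform annotation, and 19735 of 19775 genes were matched to RefSeq by Entrez number. A gene was read from its brightest probe set, by the mean of all 8 arrays, and other probe sets often differed, as given in the report for part of the genes. Kept were the 12282 genes above the floor, the highest B. subtilis control of a set of arrays, on at least 1 untransduced and 1 transduced array of the 6. PC3-EMT1 was compared with PC3-EMT14 in limma 3.58.1 under R 4.3.3, with the shRNA state as a block, and p-values were adjusted by Benjamini-Hochberg for the 12282 genes and called at 0.05. The state comes from the labels, and it pairs the arrays because each pair shares it and a scale. For genes under the floor on all arrays of a line, the fold is a bound against the floor. In tests on simulated data for this comparison, 97% of genes changed 2-fold and 100% of those changed 4-fold were recovered. On average 10.8 of 207.8 calls were false. The simulated noise was independent and the change equal in all 3 pairs. The real pairs differed in spread (SD of the differences 0.25 untransduced, 0.37 Scr and 0.30 sh4), so these shares do not give the recovery in the real data. The number of arrays limits the precision.

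Genes were ordered along chromosomes by RefSeq (GRCh38.p14), in windows of 25. Named genes were markers, the genes with the largest differences among those called and 2-fold in all pairs (up to 15 each way), 4 members of each list and 5 genes of each window. Further called members, the stretches, the chromosomes set apart and the printed promoters were chosen after their values were seen. The comparison and the lists were chosen with earlier results of these data known. Alternatives covered the filter, the choice of probe set, the scaling, the fold limit, the variance model, the block, the window size and leaving out each pair.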

Additional observations from a re-analysis of the deposited data

Results flagged for a closer look

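Outside the genes with a name, 2 of 2407 kept probe sets without a gene symbol were at least 2-fold lower in PC3-EMT1 in all 3 pairs and 0 were higher, whereas 0 of 16 kept control probe sets met this limit. They were set apart because no comparison of the report uses them.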

How the results depend on the processing

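The pairing within shRNA state carried the test: 484 genes were called with the replicate block and 0 without it (0 higher, 0 lower, 209 at an unadjusted p under 0.05 in limma), where the arrays were centred on their medians. With the state as a random block, 732 were called (176 higher). Replicates 1, 2 and 3 are the untransduced, Scr and sh4 pairs. Leaving out each in turn gave 0 to 509 calls, 0 to 106 higher and 0 to 403 lower, with 0 in limma without replicate 1 (1838 at an unadjusted p under 0.05), and 32 to 76 genes 2-fold in the remaining pairs. Calls were 304 with a filter at log2 5 (50 higher, 254 lower), 157 after quantile normalization (26 higher, 131 lower) and 316 with 32 added on the linear scale (49 higher). Without a filter 57 were higher, and with pairs scaled to 1 SD 143. Centring each array on its median gave 119 higher and 336 lower, against 88 and 396. The 32 genes 2-fold in all pairs became 13 with the mean of the probe sets, 13 with 32 added, 134 at a 1.5-fold and 7 at a 3-fold limit. In the Scr pair, the lowest window had a median of -0.86 with windows of 15 genes and, in another region (UBE4A to CCDC15, chromosome 11), -0.42 with 50, against -0.66 with 25. The chromosome 14 window had -0.58 with 50, and the highest window reversed to -0.012 with 15. ZEB1 ranged from -0.054 without replicate 1 to 0.21, and CDH2 from -0.015 without replicate 2 to 0.25, neither called. The causes were not tested. Genes near background on 1 line have differences that depend on the floor, and each line is 1 isolate.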
